A study of Mus musculus with 18 samples.

Results

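The genes described here are 10 components of the mechanistic target of rapamycin (mTOR) pathway: *Mtor*, *Rptor*, *Rictor*, *Tsc1*, *Tsc2*, *Deptor*, *Akt1s1*, *Eif4ebp1*, *Eif4ebp2* and *Rps6kb1*. They were taken by symbol from a list, and all 10 are present among the 54752 genes of the RNA files and the 22523 genes of the ribosome footprint files. The libraries come from the cerebellum of 3-week-old mice of both sexes on the C57BL/6J (B6J) background, with 3 B6J, 3 B6J.*Gtpbp1*-/- and 3 B6J-*Gtpbp2*-/- libraries in each assay. All of these mice, the B6J controls included, carry the B6J mutation of the arginine tRNA gene *n-Tr20*, which reads AGA codons. In the *Gtpbp1* allele a PGK-Neo cassette takes the place of part of an exon and of the next exon, in a line made congenic by repeated backcrossing. The *Gtpbp2* allele is the chemically induced null point mutation nmf205. The labels put all RNA libraries in batch 1 and all footprint libraries in batch 2, so any difference between the assays cannot be told apart from the batch.

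The mTOR kinase works in complexes that sense nutrients and growth factors. With raptor it forms mTORC1, which drives protein synthesis by phosphorylating the 4E-BP proteins and the S6 kinases, and with rictor it forms mTORC2, which acts on AKT. The TSC1 and TSC2 proteins hold mTORC1 back by turning off the small GTPase Rheb, and DEPTOR and PRAS40 (the product of *Akt1s1*) bind to the complexes and inhibit them. Most of this control works through binding and phosphorylation, which RNA and footprint counts do not measure. GTPBP1 and GTPBP2 are translational GTPases that act on stalled ribosomes.

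Deposited estimated counts per RNA library total 37794333 to 52114145 (median 49293902), and footprint counts in coding sequence total 3630823 to 10442573 (median 6281637). Levels are given below as CPM, counts scaled for depth after trimmed-mean normalization, and as TPM, which also takes account of transcript length, where genes are compared with each other. A gene passes the test when its p-value, adjusted by the Benjamini-Hochberg method over all genes of that comparison, is at most 0.05 in edgeR's quasi-likelihood test. Both mutant genotypes are compared with the same 3 B6J libraries in each assay, so their results are given side by side and are not independent.

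The targeted genes were checked first against the labels. *Gtpbp1* RNA stood at 70.7, 77.6 and 66.5 CPM in B6J, 44.2, 41.7 and 43.8 in *Gtpbp1*-/- and 58.8, 72.3 and 65.8 in *Gtpbp2*-/-. All 3 *Gtpbp1*-/- libraries lie below every other library, and the transcript fell in that genotype (log2 fold change -0.73, adjusted p = 5.9e-05, edgeR). With an offset for transcript length this call is lost (-0.31, adjusted p = 0.0815, against 2.8e-13 to 0.0815 over its 14 alternatives). *Gtpbp1* footprints stood at 73.9, 116 and 85.6 CPM in B6J and 31.7, 25.4 and 36.1 in *Gtpbp1*-/-, without overlap, and fell (-1.57, adjusted p = 0.00676).

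*Gtpbp2* RNA, at 85.6, 73.8 and 87.9 CPM in B6J, was 65.6, 75.5 and 72.9 in *Gtpbp2*-/-, where the groups overlap and the test was not passed (-0.22, 95% interval -0.42 to -0.01, adjusted p = 0.190, edgeR). The 14 alternatives for *Gtpbp2* RNA run from -0.61 with protein-coding transcripts alone (adjusted p = 0.00967) to 0.32 with the length offset (adjusted p = 0.122), which turns the direction. In TPM the gene is higher in *Gtpbp2*-/-, at 127, 145 and 151 against 114, 91.7 and 99.0 in B6J, without overlap, so its RNA level does not settle the label. Its footprints were 44.9, 36.0 and 38.8 CPM in B6J and 28.9, 26.2 and 7.51 in *Gtpbp2*-/-, which do not overlap but did not pass (-0.97, interval -1.99 to 0.06, adjusted p = 0.321). In *Gtpbp1*-/- cerebellum *Gtpbp2* RNA rose to 109, 101 and 104 CPM, above every B6J library (0.34, adjusted p = 0.0154). That call is lost without *Gtpbp1*-/- replicate 1 (0.31, adjusted p = 0.0647) and without B6J replicate 2 (0.26, adjusted p = 0.0660).

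By TPM *Tsc2* had the highest mean level of the components in B6J at 64.0, and *Eif4ebp1* the lowest at 1.58. Between them stood *Rps6kb1* at 42.1, *Akt1s1* at 33.4, *Rictor* at 31.5, *Eif4ebp2* at 28.3, *Mtor* at 27.3, *Rptor* at 22.0, *Tsc1* at 19.5 and *Deptor* at 4.96. Neighbours in this order overlap in their B6J libraries from *Rps6kb1* through *Tsc1*, while *Tsc2*, *Deptor* and *Eif4ebp1* do not overlap their neighbours. In B6J, *Tsc2* lies above 91.0% of the 32368 genes detected, *Deptor* above 60.1% and *Eif4ebp1* above 48.7%. These levels sum all transcripts of a gene. In protein-coding transcripts alone *Tsc2* is not the highest. Its B6J mean there is 30.13 TPM, below *Rps6kb1* (33.66), *Akt1s1* (32.38) and *Rictor* (30.16).

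Footprint density (footprint counts per kilobase of coding sequence, scaled for depth) gave another order in B6J, led by *Eif4ebp2* at 40.6 and *Mtor* at 31.3. *Tsc2* followed at 30.5, *Rictor* at 27.1, *Rptor* at 25.0, *Akt1s1* at 23.6, *Rps6kb1* at 15.9, *Tsc1* at 11.0, *Deptor* at 5.09 and *Eif4ebp1* at 2.84. Neighbours in this order overlap in their B6J libraries from *Eif4ebp2* through *Akt1s1*, and *Deptor* overlaps *Eif4ebp1*, so only by TPM is *Eif4ebp1* apart at the bottom.

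In RNA, 2 of the 10 components passed the test in *Gtpbp1*-/- against B6J, both of them higher, while 13.8% of all 24577 genes tested passed (5.9% higher, 7.93% lower). The same 2 genes, *Eif4ebp1* and *Deptor*, passed and were higher in *Gtpbp2*-/-, while 8.63% of 24859 genes passed (3.61% higher, 5.02% lower). With 10 genes a count of 2 is too small to set the share apart from the background. The median log2 fold change of the components was 0.03 and 0.01, beside 0.03 and 0.03 over all genes. The split of all genes into higher and lower depends on scaling, since 42.6% of those passing in *Gtpbp1*-/- were higher here and 54.9% with upper-quartile scaling.

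In footprints, 1 component passed in each genotype, *Eif4ebp1* both times. It reached the filter on low footprint counts only through the mutant libraries, and each call is lost in 1 alternative given with its values below, so nothing is read from this count against the background. Of all genes, 0.745% of 13956 passed in *Gtpbp1*-/- (0.573% higher, 0.172% lower) and 2.94% of 13797 in *Gtpbp2*-/- (1.28% higher, 1.67% lower). The median log2 fold change in footprints was -0.13 and 0.13 for the components, and 0.01 in each genotype over all genes. The plot of fold changes shows *Eif4ebp1* apart from the other components in both assays.

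**Figure D1:**
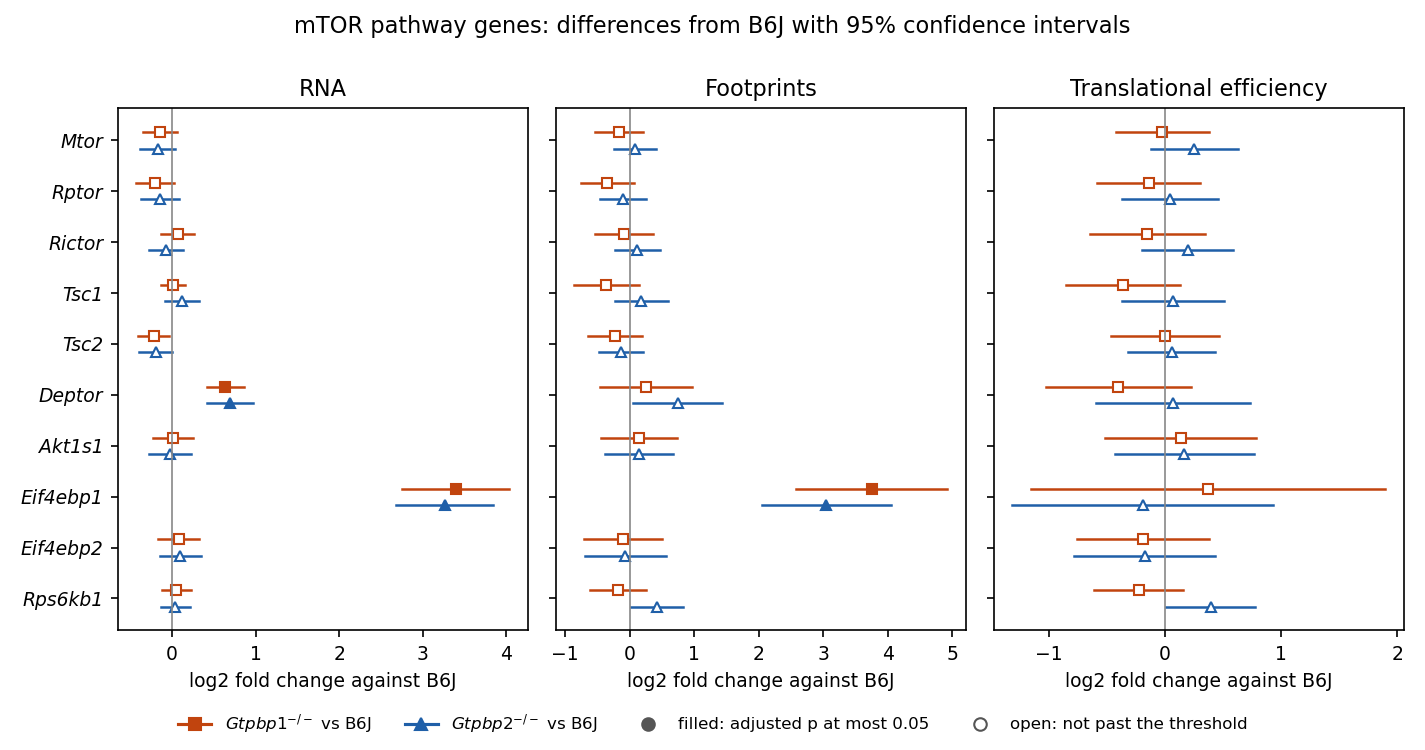
Log2 fold changes of the 10 components in RNA, footprints and translation efficiency, each mutant genotype against B6J. Lines are 95% confidence intervals, and filled symbols passed edgeR's test.

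*Mtor* (ENSMUSG00000028991, chr4:148448611-148557683, plus strand, GRCm38/mm10) encodes the kinase shared by both complexes. Its RNA stood at 131, 141 and 108 CPM in B6J, 116, 110.2 and 119.9 in *Gtpbp1*-/- and 111, 114 and 115 in *Gtpbp2*-/-. B6J replicate 3 is the lowest of all 9 libraries and the other 2 B6J libraries are the highest, so the groups overlap. The log2 fold changes were -0.14 (95% interval -0.34 to 0.06, adjusted p = 0.392, edgeR) and -0.17 (-0.38 to 0.04, adjusted p = 0.333). *Mtor* footprints stood at 247, 229 and 249 CPM in B6J, 180.3, 225 and 239 in *Gtpbp1*-/- and 241, 299 and 225 in *Gtpbp2*-/-. These overlap too, with log2 fold changes of -0.17 and 0.08.

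*Rptor* (ENSMUSG00000025583, chr11:119602905-119899576, plus strand) encodes raptor, the scaffold that recruits substrates to mTORC1. In RNA it stood at 89.1, 94.8 and 69.9 CPM in B6J, 79.0, 68.3 and 74.7 in *Gtpbp1*-/- and 79.4, 75.0 and 76.1 in *Gtpbp2*-/-. As for *Mtor*, B6J replicates 1 and 2 are the highest of the 9 libraries and replicate 3 is among the lowest. Its log2 fold changes were -0.20 (interval -0.43 to 0.03, adjusted p = 0.258, edgeR) and -0.15 (adjusted p = 0.470). Raptor footprints were 115, 93.5 and 92.4 CPM in B6J, 67.8, 79.3 and 89.6 in *Gtpbp1*-/- and 105, 94.3 and 80.2 in *Gtpbp2*-/-. All 3 *Gtpbp1*-/- libraries are below all B6J libraries, and the test was not passed (-0.34, interval -0.75 to 0.06, adjusted p = 0.485).

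*Rictor* (ENSMUSG00000050310, chr15:6708379-6800401, plus strand) encodes the scaffold of mTORC2. RNA for it ranged from 122 to 154 CPM in B6J, 140.1 to 159 in *Gtpbp1*-/- and 129 to 139 in *Gtpbp2*-/-. In CPM both mutant genotypes overlap B6J, while every *Gtpbp1*-/- library lies above every *Gtpbp2*-/- library. In TPM the *Gtpbp1*-/- libraries (36.2, 35.1 and 39.1) lie above B6J (33.2, 33.6 and 27.6). Those of *Gtpbp2*-/- (33.8, 33.6 and 31.1 TPM) overlap B6J. The log2 fold changes were 0.07 and -0.07 in RNA and -0.09 and 0.12 in footprints, none of which passed.

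*Tsc1* (ENSMUSG00000026812, chr2:28641228-28691167, plus strand) encodes hamartin, which stabilizes the TSC complex. Its RNA was 80.3, 83.2 and 81.1 CPM in B6J, 79.7, 83.0 and 85.1 in *Gtpbp1*-/- and 102, 82.2 and 82.4 in *Gtpbp2*-/-. Apart from the first *Gtpbp2*-/- library the CPM values are close, and the log2 fold changes were 0.01 and 0.12. In TPM *Tsc1* was 19.0, 18.9 and 20.5 in B6J, below every mutant library. There it was 21.7, 23.4 and 23.2 TPM in *Gtpbp1*-/- and 28.1, 21.9 and 21.7 in *Gtpbp2*-/-. *Tsc1* footprints were 40.4, 46.3 and 31.6 CPM in B6J, 23.6, 33.3 and 35.1 in *Gtpbp1*-/- and 44.5, 49.0 and 40.8 in *Gtpbp2*-/-. The *Gtpbp1*-/- libraries lie below every *Gtpbp2*-/- library and overlap B6J, with log2 fold changes against B6J of -0.36 (adjusted p = 0.561, edgeR) and 0.18.

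*Tsc2* (ENSMUSG00000002496, chr17:24595816-24632630, minus strand) encodes tuberin, the GTPase-activating subunit that acts on Rheb. Its RNA stood at 124, 116 and 99.1 CPM in B6J, 99.4, 97.9 and 95.4 in *Gtpbp1*-/- and 99.0, 101 and 97.9 in *Gtpbp2*-/-. B6J replicates 1 and 2 stand above all 6 mutant libraries, and B6J replicate 3 lies among them. The log2 fold changes were -0.22 (interval -0.40 to -0.03, unadjusted p = 0.0241, adjusted p = 0.118, edgeR) and -0.19 (adjusted p = 0.224). *Tsc2* footprints were 166, 174 and 165 CPM in B6J, 111, 139 and 181 in *Gtpbp1*-/- and 159, 173 and 126 in *Gtpbp2*-/-, overlapping, with log2 fold changes of -0.23 and -0.14.

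Without B6J replicate 3, *Mtor* (-0.25, adjusted p = 0.0490), *Rptor* (-0.32, adjusted p = 0.0179) and *Tsc2* (-0.31, adjusted p = 0.0147) were lower in *Gtpbp1*-/- RNA by edgeR's test, so that 5 of 10 components passed. In that fit 3798 of all 24002 genes tested passed. Over all 14 alternatives the adjusted p of *Mtor* ran from 0.0490 to 0.972, that of *Rptor* from 0.0179 to 0.878 and that of *Tsc2* from 0.0147 to 0.381. The log2 fold change of *Rptor* ran from -0.32 to 0.04, and 1 alternative turned its direction. The RNA calls of these 3 genes therefore rest on that single B6J library, which was kept.

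*Deptor* (ENSMUSG00000022419, chr15:55112317-55259271, plus strand) encodes an inhibitory subunit found in both complexes. Its RNA stood at 23.0, 24.8 and 20.4 CPM in B6J, 33.5, 34.8 and 38.4 in *Gtpbp1*-/- and 30.9, 38.1 and 42.2 in *Gtpbp2*-/-. All 6 mutant libraries lie above all 3 B6J libraries, and the mutant genotypes overlap. *Deptor* rose in *Gtpbp1*-/- (log2 fold change 0.64, standard error 0.10, interval 0.41 to 0.86, adjusted p = 0.00118, edgeR) and in *Gtpbp2*-/- (0.70, standard error 0.13, interval 0.42 to 0.97, adjusted p = 0.0066), which is 1.56-fold and 1.62-fold. Both calls held in all 14 alternatives, at 0.56 to 0.70 and at 0.60 to 0.81.

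*Deptor* footprints are sparse, with 30, 26 and 57 counts in B6J, 56, 60 and 65 in *Gtpbp1*-/- and 69, 33 and 168 in *Gtpbp2*-/-. In CPM these are 6.74, 5.71 and 9.14, then 8.01, 6.86 and 11.0, then 10.8, 8.99 and 16.2. The groups overlap, and neither comparison passed edgeR's test (0.25, interval -0.46 to 0.96, adjusted p = 0.818, and 0.75, interval 0.06 to 1.43, adjusted p = 0.250). An antisense gene, *Gm9920*, shares 303 exonic bases with *Deptor*, and the RNA library kit does not mark the strand, so reads in that stretch are assigned with less certainty. All *Deptor* TPM was assigned to *Deptor-202* in every B6J and *Gtpbp2*-/- library, with a mean share of 98.8% in *Gtpbp1*-/-.

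*Akt1s1* (ENSMUSG00000011096, chr7:44848991-44855421, plus strand) encodes PRAS40, an inhibitory subunit of mTORC1 that AKT phosphorylates. RNA of *Akt1s1* ranged from 20.8 to 25.1 CPM in B6J, 21.3 to 24.3 in *Gtpbp1*-/- and 21.0 to 23.4 in *Gtpbp2*-/-. The 3 groups overlap fully, with log2 fold changes of 0.01 and -0.03 in RNA and 0.15 and 0.14 in footprints.

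*Eif4ebp1* (ENSMUSG00000031490, chr8:27260329-27276674, plus strand) encodes 4E-BP1, which binds the cap-binding protein eIF4E and blocks initiation until mTORC1 phosphorylates it. Its estimated RNA counts were 59, 104 and 57 in B6J, 598, 723 and 829 in *Gtpbp1*-/- and 583, 927 and 762 in *Gtpbp2*-/-. In CPM these are 1.25, 2.24 and 1.13, then 13.1, 14.0 and 21.6, then 12.5, 17.8 and 14.3. The lowest mutant library lies far above the highest B6J library, and the mutant genotypes overlap each other. *Eif4ebp1* RNA rose 10.5-fold in *Gtpbp1*-/- (log2 fold change 3.40, standard error 0.29, interval 2.75 to 4.04, adjusted p = 3.0e-05, edgeR) and 9.60-fold in *Gtpbp2*-/- (3.26, standard error 0.27, interval 2.68 to 3.85, adjusted p = 5.2e-05). In all 14 alternatives both calls held, at log2 fold changes of 3.13 to 3.76 and 3.08 to 3.63.

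*Eif4ebp1* footprint counts were 2, 5 and 9 in B6J, 59, 84 and 146 in *Gtpbp1*-/- and 59, 29 and 92 in *Gtpbp2*-/-. As CPM they come to 0.449, 1.10 and 1.44, then 8.44, 9.60 and 24.8, then 9.21, 7.90 and 8.85. Again every mutant library lies above every B6J library, and *Gtpbp1*-/- replicate 3 stands above the other mutant libraries. The footprints rose in *Gtpbp1*-/- (log2 fold change 3.75, interval 2.58 to 4.93, adjusted p = 0.00676, edgeR) and in *Gtpbp2*-/- (3.05, interval 2.06 to 4.05, adjusted p = 0.00304). *Eif4ebp1* reached the filter on low footprint counts through the mutant libraries, where it is high, and with no filter it passed too (3.77, adjusted p = 0.000449, and 3.05, adjusted p = 0.000131). The *Gtpbp1*-/- call is lost without B6J replicate 1 (3.44, adjusted p = 0.0600, the highest of its 12 alternatives), and the *Gtpbp2*-/- call with sex in the model (2.58, adjusted p = 0.153, likewise the highest of 12). All *Gtpbp2*-/- libraries are female, so with sex in the model that comparison rests on the 1 female B6J footprint library, replicate 3.

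In TPM, *Eif4ebp1* went from a mean of 1.58 (SD 0.621, n = 3) in B6J to 22.0 (SD 6.10) in *Gtpbp1*-/- and about 18.9 (SD 4.56) in *Gtpbp2*-/-. That moves it from 10th to 9th in the order of the components, with *Deptor* 10th in both mutant genotypes and no overlap between the pair. By footprint density *Eif4ebp1* was 24.0, 27.4 and 70.5 in *Gtpbp1*-/-, a mean of 40.6 that rests on replicate 3. In replicates 1 and 2 of that genotype it lies below *Eif4ebp2* (33.8 and 35.5) and *Rictor* (28.4 and 29.0). *Eif4ebp1* ranks 6th by mean density in *Gtpbp2*-/-.

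**Figure D2:**
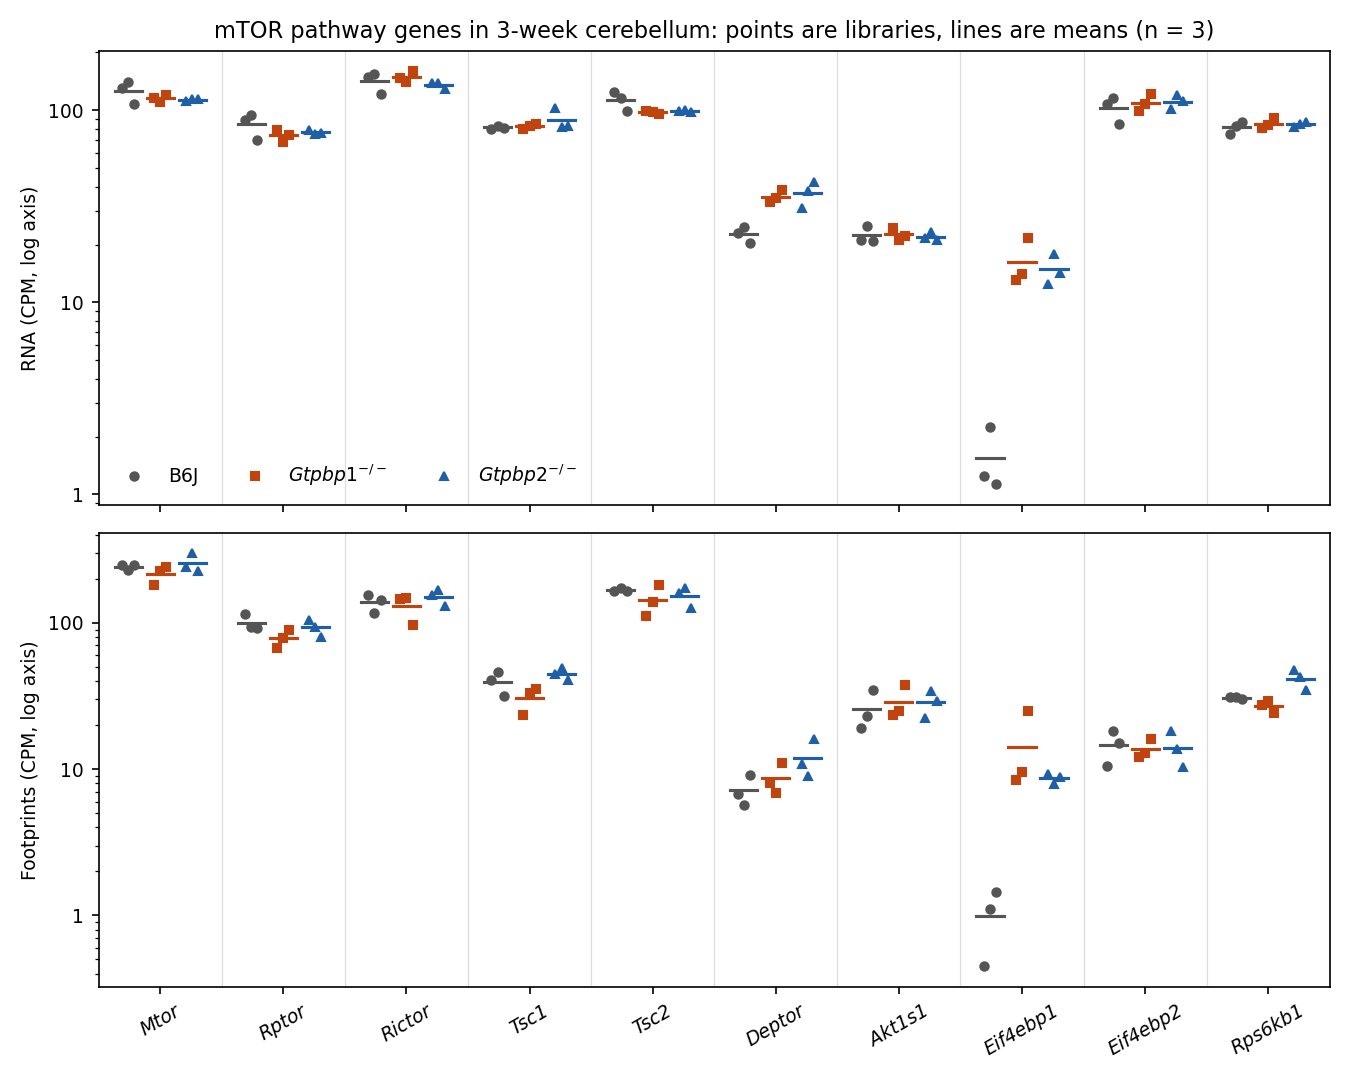
Level of each component in every library, in RNA and in footprints. Each point is 1 library.

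The deposited transcript names (the authors used Gencode M20) give *Eif4ebp1* 2 transcripts, the protein-coding *Eif4ebp1-201* and the processed transcript *Eif4ebp1-202*. *Eif4ebp1-202* was 0 TPM in all 3 B6J libraries, 7.61, 1.98 and 6.03 TPM in *Gtpbp1*-/- and 2.06, 6.14 and 1.76 TPM in *Gtpbp2*-/-. *Eif4ebp1-201* stood at 12.3, 15.3 and 22.9 TPM in *Gtpbp1*-/- and 13.3, 17.9 and 15.7 TPM in *Gtpbp2*-/-, so it makes up most of the gene's RNA in every library. The mean share of *Eif4ebp1-202* was 23.5% (SD 13.6) and 16.3% (SD 8.10), with an exact permutation p of 0.1 for each, the smallest that 3 libraries against 3 allow. Taking 3 counts as the upper limit of 0, the B6J libraries leave room for a share of TPM of up to 13.7%, 7.25% and 14.4%, and the mutant libraries range from 10.1% to 38.3%, so these overlap.

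**Figure D3:**
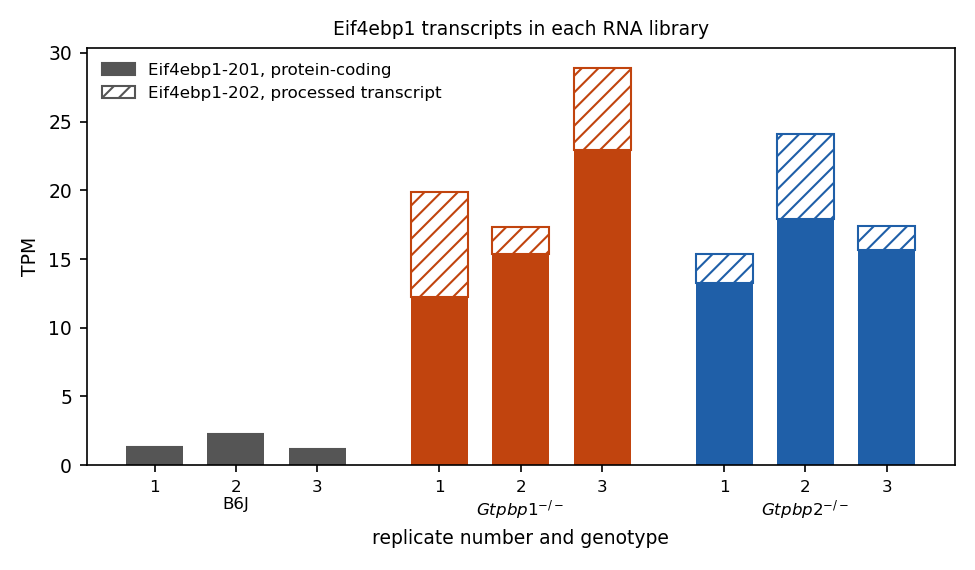
TPM of the 2 annotated *Eif4ebp1* transcripts in each RNA library. The processed transcript is at 0 in the B6J libraries.

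*Eif4ebp2* (ENSMUSG00000020091, chr10:61428491-61452661, minus strand) encodes 4E-BP2, the main 4E-BP of the brain. For this gene RNA stood at 108, 116 and 85.0 CPM in B6J, 99.6, 108 and 121 in *Gtpbp1*-/- and 102, 119.6 and 111 in *Gtpbp2*-/-. The groups overlap, and the log2 fold changes were 0.08 and 0.10 in RNA and -0.10 and -0.07 in footprints. In B6J the mean level of *Eif4ebp2* is thus far above that of *Eif4ebp1* on both length-corrected scales, 28.3 against 1.58 TPM.

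*Rps6kb1* (ENSMUSG00000020516, chr11:86498871-86544805, minus strand) encodes S6K1, the S6 kinase that mTORC1 activates. Its RNA was 75.2, 82.7 and 87.4 CPM in B6J, 80.5, 84.3 and 90.7 in *Gtpbp1*-/- and 81.5, 84.5 and 87.4 in *Gtpbp2*-/-, overlapping, with log2 fold changes of 0.05 and 0.04. In TPM the *Gtpbp1*-/- libraries (50.05, 51.16 and 50.94) lie above B6J (35.42, 43.13 and 47.84). Those of *Gtpbp2*-/- (53.49, 47.64 and 50.1 TPM) overlap B6J. *Rps6kb1* footprints stood at 31.0, 31.2 and 30.1 CPM in B6J, 27.6, 29.4 and 24.1 in *Gtpbp1*-/- and 47.3, 42.5 and 34.7 in *Gtpbp2*-/-. Here the genotypes do not overlap, with *Gtpbp1*-/- lowest and *Gtpbp2*-/- highest, though neither comparison with B6J passed edgeR's test (-0.18, interval -0.62 to 0.26, and 0.43, interval 0.03 to 0.83, unadjusted p = 0.0388, adjusted p = 0.259).

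The 8 components that did not pass in RNA had log2 fold changes from -0.22 (*Tsc2*) to 0.08 (*Eif4ebp2*) in *Gtpbp1*-/-, with 95% intervals inside -0.43 to 0.33. For *Gtpbp2*-/- the 8 ran from -0.19 (*Tsc2*) to 0.12 (*Tsc1*), with intervals inside -0.39 to 0.34. The 9 that did not pass in footprints are held less tightly, with intervals inside -0.86 to 0.96 in *Gtpbp1*-/- and -0.69 to 1.43 in *Gtpbp2*-/-.

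Translation efficiency, the ratio of footprints to RNA, was tested as the interaction of assay and genotype. By edgeR 0 of the 10 components passed in *Gtpbp1*-/-, where 0.0% of 13086 genes passed, and none had an unadjusted p under 0.05 (0 of 10, and 0 by DESeq2). Likewise 0 of 10 passed by edgeR in *Gtpbp2*-/-, where 0.00773% of 12931 genes passed, with 1 component at an unadjusted p under 0.05 and 0 called by DESeq2. Over all genes of the 2 comparisons, 1170 and 1554 had an unadjusted p under 0.05 by edgeR, and 58 and 160 passed by DESeq2. The single component under 0.05 unadjusted was *Rps6kb1* (0.39, adjusted p = 0.401). *Eif4ebp1*, with 2, 5 and 9 footprints in B6J, entered this test only through the mutant libraries, where it is high, so its values describe little about B6J. They were 0.37 (interval -1.15 to 1.90, adjusted p = 0.919, edgeR) and -0.19 (interval -1.31 to 0.93, adjusted p = 0.920), and the second turned to 0.35 without B6J replicate 3 (adjusted p = 0.824, within 0.824 to 0.962 over the 11 alternatives that could be fitted). *Deptor* had -0.40 and 0.07. The median over the components was -0.15 and 0.07, beside 0.03 and 0.03 over all genes.

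When *Gtpbp1*-/- was compared with *Gtpbp2*-/- directly, 0 of the 10 components passed in RNA by edgeR, with 0 at an unadjusted p under 0.05 and 0 by DESeq2, while 0.0595% of 25190 genes passed (899 genes at an unadjusted p under 0.05, 46 by DESeq2). *Eif4ebp1* differed by 0.13 (interval -0.33 to 0.59) in RNA and by 0.69 (interval -0.14 to 1.51, adjusted p = 0.538, edgeR) in footprints. In footprints 0 of 10 passed by edgeR (2 at an unadjusted p under 0.05, 0 by DESeq2), where 0.0% of 14142 genes passed (1523 genes at an unadjusted p under 0.05, 100 by DESeq2). The 2 components under 0.05 unadjusted were *Rps6kb1* (-0.62, interval -1.05 to -0.19, unadjusted p = 0.00835, adjusted p = 0.340, edgeR) and *Tsc1* (-0.55, unadjusted p = 0.0179, adjusted p = 0.384). For translation efficiency 0 of 10 passed by edgeR (1 at an unadjusted p under 0.05, 0 by DESeq2), where 0.0% of 13292 genes passed (1483 genes at an unadjusted p under 0.05, 155 by DESeq2). The 1 component under 0.05 is *Rps6kb1* (-0.63, adjusted p = 0.284, edgeR).

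The transcript make-up of several components is mixed in B6J. *Tsc2* has 22 annotated transcripts, and its protein-coding class makes up 54.3%, 51.4% and 37.4% of its TPM in the B6J libraries, with retained introns at 44.9%, 47.9% and 62.1%. The mean protein-coding share of *Tsc2* was 47.7% in B6J, 49.8% in *Gtpbp1*-/- and 45.6% in *Gtpbp2*-/-, and B6J replicate 3 has the lowest share. *Rptor* has 12, and 59.1%, 46.0% and 55.9% of its B6J TPM goes to transcripts annotated as targets of nonsense-mediated decay. *Mtor* is assigned mostly to *Mtor-202*, at 86.4%, 87.0% and 84.1% in the B6J libraries. In *Gtpbp1*-/- its share was 91.35%, 60.67% and 85.94% (mean 79.3%), which overlaps B6J. In *Gtpbp2*-/- it was 81.58%, 72.98% and 74.34% (mean 76.3%), all below B6J. A mean of 51.7% of the *Tsc2* TPM in B6J is given to retained introns, while the footprints are counted in coding sequence only. Exons of *Tsc2* overlap *Pkd1* by 693 bases, those of *Rps6kb1* overlap *Rnft1* by 155, those of *Akt1s1* overlap *Tbc1d17* by 89 and those of *Rptor* overlap *Rptoros* by 84.

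Genes were also ranked by how close their RNA pattern over the 9 libraries is to that of the components that passed, by root-mean-square difference of centred log2 CPM over 18157 genes. Closest to *Eif4ebp1* were *Trim66* (0.266) and *Kctd16* (0.283), where the pattern of *Eif4ebp1* itself has a standard deviation of 1.63. *Kctd16* RNA stood at 0.51, 0.62 and 0.46 CPM in B6J, 3.84, 3.67 and 5.29 in *Gtpbp1*-/- and 2.97, 4.30 and 4.58 in *Gtpbp2*-/-. Closest to *Deptor* were *Zxdb* (0.0496) and *Atp13a5* (0.0562), where *Deptor* has a standard deviation of 0.346. *Zxdb* stood at 16.1, 17.9 and 14.6 CPM in B6J, 23.4, 25.2 and 28.9 in *Gtpbp1*-/- and 24.2, 27.2 and 30.6 in *Gtpbp2*-/-. Their separation of B6J from the mutants follows from how these genes were picked and is no result of its own.

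A wider list of 73 other genes of the pathway, covering amino acid sensors, the Rag and lysosomal complexes, AKT and growth factor inputs and mTORC1 targets, gives the surroundings of the components. In *Gtpbp1*-/- RNA 13 of 73 passed (17.8%, 4 higher and 9 lower), and in *Gtpbp2*-/- RNA 7 of 73 (9.59%, 2 higher and 5 lower). With upper-quartile scaling the split becomes 8 higher and 6 lower in *Gtpbp1*-/- and 3 higher and 3 lower in *Gtpbp2*-/-, so the excess of lower genes depends on scaling. The shares that passed are near the backgrounds of 13.8% and 8.63%, and the median log2 fold changes were -0.03 and 0.00. In footprints 1 of 72 passed in *Gtpbp1*-/- (1.39%, beside 0.745% of all genes) and 3 of 72 in *Gtpbp2*-/- (4.17%, beside 2.94%). For translation efficiency 0 of 72 passed in either genotype by edgeR, with 5 and 6 at an unadjusted p under 0.05 and 0 by DESeq2. Among all genes 1170 of 13086 and 1554 of 12931 were under 0.05 unadjusted, and 58 and 160 passed by DESeq2.

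The stress-responsive inhibitor *Sesn2* showed the largest change of the wider list in both genotypes (RNA 2.98 and 2.83, footprints 2.66 and 2.42). *Grb10*, an adaptor that mTORC1 phosphorylates and that dampens insulin signalling, stood at 38.2, 39.3 and 36.2 CPM in B6J, 56.8, 63.1 and 46.5 in *Gtpbp1*-/- and 76.8, 54.5 and 65.9 in *Gtpbp2*-/-. All mutant libraries lie above all B6J libraries, and *Grb10* RNA rose in both (0.54, adjusted p = 0.00375, and 0.79, adjusted p = 0.00186, edgeR). *Grb10* footprints overlap and did not pass, with means of 48.95 CPM in B6J, 52.08 in *Gtpbp1*-/- and 51.68 in *Gtpbp2*-/-. Over 14 alternatives its translation efficiency differed by -0.54 to -0.37 and by -0.81 to -0.54, and passed in none. *Seh1l*, of the GATOR2 complex, was 45.5, 43.5 and 43.4 CPM in B6J and 54.9, 58.1 and 61.4 in *Gtpbp1*-/-, where it rose (0.39, adjusted p = 0.00587). In *Gtpbp2*-/- it was 46.6, 56.5 and 56.7 CPM, all above B6J, and did not pass (0.26, interval 0.06 to 0.47, adjusted p = 0.115), though it did without *Gtpbp2*-/- replicate 1 (adjusted p = 0.0213, within 0.0213 to 0.347 over 14 alternatives).

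*Castor2*, related to the arginine sensor of the pathway, had 130.1, 142 and 138 CPM in B6J, 91.8, 85.2 and 77.0 in *Gtpbp1*-/- and 130.3, 82.5 and 98.0 in *Gtpbp2*-/-. Only the *Gtpbp1*-/- libraries lie wholly below B6J, where *Castor2* fell (-0.70, adjusted p = 7.1e-05, edgeR). In *Gtpbp2*-/- it did not pass, with log2 fold changes of -0.61 to -0.27 over 14 alternatives. It passed in 2 of them, by DESeq2 and without *Gtpbp2*-/- replicate 1. *Prr5*, a subunit of mTORC2, had 8.81, 9.37 and 9.23 CPM in B6J, 4.17, 4.64 and 5.32 in *Gtpbp1*-/- and 7.27, 6.71 and 5.38 in *Gtpbp2*-/-, and fell in *Gtpbp1*-/- (-0.96, adjusted p = 0.00183). The B6J and mutant libraries of *Prr5* do not overlap in either genotype, and in *Gtpbp2*-/- it passed in 1 of 14 alternatives, by DESeq2.

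*Sesn1*, a leucine-sensing relative of *Sesn2*, had 101, 111 and 106 CPM in B6J, 70.1, 72.6 and 73.4 in *Gtpbp1*-/- and 84.9, 82.0 and 71.1 in *Gtpbp2*-/-. No mutant library reaches the B6J range, and *Sesn1* fell in *Gtpbp1*-/- (-0.56, adjusted p = 0.000151, edgeR) and in *Gtpbp2*-/- (-0.42, adjusted p = 0.0119). The *Gtpbp2*-/- call of *Sesn1* was lost in 4 of its 14 alternatives, where its adjusted p reached 0.0783. *Akt2*, one of the kinases upstream of the TSC complex, fell in *Gtpbp1*-/- (-0.36, adjusted p = 0.00513) and in *Gtpbp2*-/- (-0.37, adjusted p = 0.0175), the latter lost in 4 of 14 alternatives with an adjusted p of up to 0.0851.

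The other calls of the wider list were each lost in some alternatives. In *Gtpbp1*-/- RNA *Kptn* (-0.54, adjusted p = 0.00975, edgeR) was lost in 2 of 14 alternatives, *Fnip1* (0.34, adjusted p = 0.0196) in 6, *Tfeb* (-0.49, adjusted p = 0.0263) in 8, *Ulk1* (-0.32, adjusted p = 0.0417) and *Rragd* (-0.29, adjusted p = 0.0491) in 9 each, and *Lamtor5* (-0.32, adjusted p = 0.0455) in 10. In *Gtpbp2*-/- RNA *Rragd* (-0.42, adjusted p = 0.0160) was lost in 4 of 14, *Lamtor4* (-0.52, adjusted p = 0.0376) in 10 and *Kptn* (-0.44, adjusted p = 0.0367) in 11. In *Gtpbp2*-/- footprints *Igf1r*, a receptor upstream of the pathway, stood at 66.5, 66.9 and 61.3 CPM in B6J and 94.9, 104 and 105 in the mutant without overlap (0.64, adjusted p = 0.0382), and its call was lost in 7 of 12 alternatives. *Ddit4*, a stress-induced inhibitor of mTORC1, passed there too (0.73, adjusted p = 0.0479, at 106, 101 and 133 CPM in B6J and 156, 166 and 242 in *Gtpbp2*-/-), and was lost in 8 of 12.

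Since the B6J mice lack part of the tRNA that reads AGA, the AGA codons of the components were counted in the annotated coding sequences. *Rps6kb1* has the most per length, 19.0 per 1000 codons (10 of 525), then *Rictor* at 17.0 (29 of 1708), *Deptor* at 14.7 (6 of 409) and *Mtor* at 11.0 (28 of 2549). *Tsc2* has 10.5, *Tsc1* 10.4 and *Rptor* 8.24, while *Eif4ebp1* (117 codons), *Eif4ebp2* (120 codons) and *Akt1s1* (257 codons) have 0. Over 18024 genes the median is 10.6 per 1000, and 8.82% have none. Of the 2 components that rose in RNA, *Deptor* thus has AGA codons and *Eif4ebp1* has none. Shown here, as the only place in *Rps6kb1* printed, is a pair of adjacent AGA codons with the first in capitals. The files hold no counts per codon, so no pausing there was measured.
*Rps6kb1-207* codon 436: atccgatctcctAGAagatttattggt

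The letters TGATGNAAN, a motif bound by ATF4 and its partners, were searched on both strands of RefSeq promoter windows (GRCm38), running from 250 bases before the start of each gene to 50 after it. Of the components 8 matched an entry, *Eif4ebp1* and *Deptor* not being among them, and 0 of the 8 hold the letters, beside 3.95% of all 32851 windows. In the wider list 3 of 62 genes hold them, beside 4.50% of 27025 genes. The 3 are *Akt2*, *Eef2k* and *Lamtor4*, and their share is near that of all genes.

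Markers of cerebellar cell types moved with genotype in the same RNA libraries as *Eif4ebp1* and *Deptor*, and their part in the result was not tested. In whole tissue fewer cells of a type and less RNA per cell cannot be told apart. Of 5 granule neuron markers 5 were lower in *Gtpbp1*-/- and 4 in *Gtpbp2*-/-, and their summed level was 2960.0, 3198 and 3388 CPM in B6J, 1978, 2071 and 2338 in *Gtpbp1*-/- and 2179, 2257 and 1993 in *Gtpbp2*-/-, with *Zic1* the most abundant. Of 5 microglia markers 3 (*Csf1r*, *C1qa* and *Cx3cr1*) were higher in both genotypes, with sums of 71.3, 72.9 and 74.0 CPM, then 146, 127 and 121, then 131, 124 and 135, *Csf1r* the most abundant. Of 3 endothelial markers 2 were higher in each genotype, with sums of 96.5, 95.9 and 92.1 CPM, then 121, 125 and 131, then 110.0, 142 and 158, *Flt1* the most abundant. For all 3 cell types the mutant libraries lie wholly to one side of B6J.

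Of 5 Purkinje cell markers 2 were lower in *Gtpbp1*-/- and 3 in *Gtpbp2*-/- RNA, with *Car8* the most abundant and sums of 4129, 4399 and 4018 CPM, then 3332, 3056 and 3840.0, then 3228, 3480.0 and 2905. Here too all mutant sums lie below B6J. All 5 oligodendrocyte markers were lower in *Gtpbp1*-/- RNA and none passed in *Gtpbp2*-/- (log2 fold changes -0.15 to 0.03), with *Mbp* the most abundant and sums of 10940.0, 9620.0 and 11190.0 CPM, then 8146, 8173 and 7012, then 11850.0, 8852 and 9428. Of 5 astrocyte and Bergmann glia markers 1 was higher and 2 lower in each genotype, with *Slc1a3* the most abundant and sums of 3308, 3525 and 2969 CPM, then 3115, 2668 and 3145, then 2737, 3117 and 2745. Among 3 precursor markers of oligodendrocytes *Cspg4* was higher in *Gtpbp2*-/-, and among 3 blood markers *Alas2* was higher in *Gtpbp1*-/-. In footprints 3 of 5 granule neuron markers were lower in *Gtpbp2*-/-, *C1qa* and the endothelial marker *Cldn5* were higher in both genotypes, and no other marker passed. Choroid plexus markers differed widely within genotypes, from 239.6 to 1733 CPM in B6J and from 53.4 to 1059 in *Gtpbp2*-/-, nearly all of it *Ttr*, and none passed. Muscle markers (2.24 to 3.65 CPM) and forebrain neuron markers (7.55 to 11.9 CPM) were low in every RNA library. No marker was at 0 in all libraries of an assay.

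The marker sums in footprints also moved beside *Eif4ebp1* footprints, and their part in that result was not tested. Bone and connective tissue markers (5, with *Col1a1* the most abundant and *Ibsp* at 0 in some libraries) summed to 325, 732 and 944 CPM in B6J, 1702, 1438 and 2772 in *Gtpbp1*-/- and 662, 1023 and 526 in *Gtpbp2*-/-. Every *Gtpbp1*-/- library lies above B6J, and replicate 3, which is also the highest for *Eif4ebp1* footprints, is the highest of all, though no single marker of the 5 passed. Muscle marker sums (*Acta1* the most abundant, *Myh1* and *Ckm* at 0 in some libraries) were likewise highest in *Gtpbp1*-/-, at 5.62, 12.9 and 10.6 CPM in B6J, 22.3, 13.8 and 36.5 in *Gtpbp1*-/- and 3.28, 6.81 and 2.79 in *Gtpbp2*-/-. Microglia marker sums were 141, 167 and 142 CPM in B6J, 347, 204 and 406 in *Gtpbp1*-/- and 202, 206 and 269 in *Gtpbp2*-/-. Endothelial sums were 215, 135 and 236 CPM, then 503, 366 and 307, then 433, 345 and 377. For both of the last cell types all mutant libraries lie above B6J, and granule neuron sums lie below it, at 2001, 3116 and 2392 CPM in B6J, 1818, 1321 and 1710.0 in *Gtpbp1*-/- and 1213, 972 and 1156 in *Gtpbp2*-/-. Oligodendrocyte precursor sums in the mutants all lie above B6J, at 123.3, 144.0 and 128.6 CPM, then 167.1, 148.0 and 184.7, then 157.3, 170.5 and 148.2. Median log2 fold changes in footprints were 0.10 and 0.17 for oligodendrocyte markers and 0.10 and 0.38 for Purkinje cell markers, and none of these markers passed. Choroid plexus sums, nearly all *Ttr*, differ most, at 5607, 3757 and 51.3 CPM in B6J, 13570.0, 183 and 12230.0 in *Gtpbp1*-/- and 466, 9405 and 9564 in *Gtpbp2*-/-, and blood sums (*Hbb-bs* the most abundant) are 516, 351 and 771, then 1747, 615 and 1058, then 727, 2512 and 612. These 2 overlap between the genotypes. Without *Gtpbp1*-/- replicate 3 the *Eif4ebp1* footprint difference is 3.13 (adjusted p = 0.0164, edgeR). The gene still reaches the filter through the mutant libraries, with 2, 5 and 9 counts in B6J. That fit does not test the part of the markers.

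By *Ddx3y* the male RNA libraries are B6J replicate 2 and *Gtpbp1*-/- replicates 1 and 2, and the male footprint libraries are B6J replicates 1 and 2 and *Gtpbp1*-/- replicate 1. All *Gtpbp2*-/- libraries are female, so sex is uneven between the genotypes. For 2 of 9 replicate numbers the sex differs between the assays, so an RNA library and a footprint library of the same number are not always from the same mouse. *Deptor* and *Eif4ebp1* RNA passed in both genotypes with sex in the model. For *Gtpbp2*-/- that RNA comparison rests on the 2 female B6J libraries.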

How the data were processed

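RNA and ribosome footprint libraries from 9 cerebella per assay were used. The authors deposited RNA as kallisto (0.42.4) estimated counts and TPM per transcript, and footprints as featureCounts counts in coding sequence, after Bowtie2 2.2.3 removal of ribosomal RNA and HISAT2 2.1.0 alignment to mm10. Transcripts were summed to genes by the gene identifiers in the deposited transcript names, for which the authors used Gencode M20. Gene positions, exon overlaps, coding lengths and codons were taken from Gencode M21. For each pair of genotypes, every gene reaching 5 counts in 3 or more libraries was fitted with edgeR 4.0.16 (trimmed-mean scaling, robust quasi-likelihood test, Benjamini-Hochberg) in R 4.3.3, in place of the authors' sleuth, which was not available. Translation efficiency used the assay by genotype interaction over 12 libraries, on genes reaching 10 counts in 3 or more of the 6 libraries of each assay, with histone genes left out. Display CPM were scaled over 9 libraries. The fits were tested on simulated data.

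Alternatives tried were DESeq2 1.42.0, upper-quartile scaling, no filter, a length offset (RNA), protein-coding transcripts alone, all genotypes in a single model, a replicate block, a sex covariate (from *Ddx3y*) and leaving out each library. For translation efficiency, trimmed-mean scaling within each assay was tried too, and the replicate block there joined RNA and footprint libraries of the same genotype and number. The p-values of the fits set each genotype difference against the variation among libraries of the same genotype. Depth per library is given with the results, and the low footprint counts of *Deptor* and *Eif4ebp1* limit their precision. The members and lists were chosen with earlier results of these data known. Named genes are the components, the targeted genes, the genes of the wider list that passed or hold the promoter motif, and the closest genes by pattern. Also named are cell-type markers, genes that overlap components, *Ddx3y* and *n-Tr20*. A search for mTORC1 recognition motifs in the proteins was not run, as no protein table was used. Python 3.11.15 with pandas 2.3.3, numpy 2.4.6 and scipy 1.17.1 collected the values, and matplotlib 3.10.9 drew the figures.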

Additional observations from a re-analysis of the deposited data

How the results depend on the processing

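The RNA calls of *Eif4ebp1* and *Deptor* held in all 14 alternatives in both genotypes, and 2 of 10 components passed in each alternative, apart from *Gtpbp1*-/- without B6J replicate 3, where 5 passed beside 3798 of all 24002 genes. Leaving out 1 library at a time gave 2 to 5 components in *Gtpbp1*-/- RNA, 2 to 2 in *Gtpbp2*-/- RNA, 0 to 1 in *Gtpbp1*-/- footprints, 1 to 1 in *Gtpbp2*-/- footprints and 0 for translation efficiency. The wider list ran from 9 to 16, 2 to 9, 1 to 1 and 1 to 3 in those comparisons. Over all genes the range was 1890 to 3798 in *Gtpbp1*-/- RNA, 953 to 2357 in *Gtpbp2*-/- RNA, 9 to 17 between the mutants in RNA, 22 to 186 in *Gtpbp1*-/- footprints, 106 to 619 in *Gtpbp2*-/- footprints, 0 to 33 between the mutants in footprints, and 0 to 18, 0 to 42 and 0 to 32 for translation efficiency. For values below that moved, the cause was not tested.

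In *Gtpbp1*-/- RNA 3398 genes became 2234 with the length offset and 2237 with the replicate block, and the wider list of 13 became 20 with no filter, 7 with the length offset, 8 with the block and 8 with sex. The 2146 genes of *Gtpbp2*-/- RNA became 3409 by DESeq2, 1355 with the length offset and 1071 with sex, and the wider list of 7 became 14, 4 and 2. Between the mutants in RNA 15 genes became 46 by DESeq2, 36 with no filter, 5 with protein-coding transcripts alone and 9 with sex. In *Gtpbp1*-/- footprints 104 genes became 406 by DESeq2, 213 with no filter, 213 with all 3 genotypes in a single model, 44 with the block and 56 with sex. The 406 genes of *Gtpbp2*-/- footprints became 655 by DESeq2, 261 with all 3 genotypes in a single model and 45 with sex, a fit that rests on 1 female B6J library, where the components passing went from 1 to 0 and the wider list from 3 to 1. Between the mutants in footprints 0 genes became 100 by DESeq2, 3 with upper-quartile scaling, 15 with no filter, 1 with all 3 genotypes in a single model and 1 with the block.

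For translation efficiency in *Gtpbp1*-/- 0 genes became 58 by DESeq2 and 1 with protein-coding transcripts alone. For *Gtpbp2*-/- 1 gene became 160 by DESeq2, 2 with no filter, 2 with protein-coding transcripts alone, 11 with all 3 genotypes in a single model, 0 with the block and 0 with sex. Between the mutants 0 genes became 155 by DESeq2. Genes passing split differently by setting: the share higher was 41.8% in *Gtpbp2*-/- RNA and 53.3% with upper-quartile scaling (1074 higher, 941 lower), 42.6% in *Gtpbp1*-/- RNA and 54.9% (1837 higher, 1512 lower), and 26.7% between the mutants in RNA, 45.6% by DESeq2 and 47.1% without *Gtpbp1*-/- replicate 3. In *Gtpbp1*-/- footprints the share higher was 76.9%, 61.8% by DESeq2 (251 higher, 155 lower), 90.9% with the block, 87.5% with sex, 94.8% without *Gtpbp1*-/- replicate 2 (91 higher, 5 lower), 63.2% without its replicate 3, 90.2% without B6J replicate 2 and 47.8% without B6J replicate 3 (89 higher, 97 lower), where most were lower. In *Gtpbp2*-/- footprints it was 43.3%, 55.6% with sex (25 higher, 20 lower) and, without *Gtpbp2*-/- replicates 1, 2 and 3 in turn, 51.9% (55 higher, 51 lower), 55.0% (83 higher, 68 lower) and 52.9% (155 higher, 138 lower), and 51.6% without B6J replicate 2 (96 higher, 90 lower), so 5 alternatives turn the majority. Pairing of genotypes by replicate number was checked within each assay. Correlations of same-number libraries were -0.125 to 0.264 in RNA and -0.337 to 0.186 in footprints. Best with their own number were 4 of 18 and 6 of 18, so the numbers do not pair genotypes and the replicate block is an alternative only. For translation efficiency the block instead joins RNA and footprint libraries of the same genotype and number, which these correlations do not cover. Sex differs between the assays for 2 of 9 numbers, so that block too is an alternative only.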
